A study of Mus musculus with 37 samples.

Results

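The clustered protocadherins are the cadherin-like adhesion receptors encoded side by side on mouse chromosome 18 in the alpha, beta and gamma clusters. Members were taken by symbol from the genes counted by RNA-seq (Pcdha, Pcdhb and Pcdhga, Pcdhgb or Pcdhgc followed by a number or letter), which gave 58 of the 48795 counted genes, with 14 in the alpha cluster, 22 in the beta cluster and 22 in the gamma cluster. In mm10 (GRCm38), they span chromosome 18 from 36930184 to 37841873, or 911.7 kb. The alpha cluster runs from 36930184 to 37187661, the beta cluster from 37264938 to 37524479 and the gamma cluster from 37661793 to 37841873. RNA from the hippocampus of male mice was sequenced for 3 control and 3 Kdm1a-ifKO animals, with 1 library per mouse. The Kdm1a-ifKO mice carried Kdm1a f/f alleles and Camk2a-creERT2, which removes the H3K4 demethylase Kdm1a from the principal neurons of the forebrain, and the controls were littermates without the recombinase. Both groups received tamoxifen at 8 weeks of age, and the age at RNA collection is not given in the sources used here. Loops came from 1 CTCF ChIA-PET library of Camk2a+ neurons from the hippocampus of male, tamoxifen-treated WT mice, whose nuclei were sorted at 12 weeks of age through the CAG-Sun1/sfGFP reporter. By the study's methods, these mice also carried Camk2a-creERT2, unlike the RNA-seq controls.

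In neurons, clustered protocadherins form combinations on the cell surface that bind matching combinations on other cells, and they serve in self-avoidance, dendrite and synapse formation and the survival of interneurons. In the alpha and gamma clusters, each member has its own promoter and a large variable first exon, which is spliced to constant exons shared by the whole cluster, whereas the beta genes have no constant exons. The alternate promoters are chosen by a process in which CTCF and cohesin loop a promoter to distant enhancers. The C-type members (Pcdhac1, Pcdhac2, Pcdhgc3, Pcdhgc4 and Pcdhgc5) lie at the ends of the alpha and gamma clusters and are expressed more uniformly from cell to cell.

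The 6 RNA-seq libraries held between 18985542 and 19469947 counts, and members took 0.0502% ± 0.00069 (SD, n = 3) of the counts in controls and 0.0516% ± 0.0011 (SD, n = 3) in Kdm1a-ifKOs. Levels are given in CPM, the gene's count divided by the TMM-normalized library size in units of 1000000 counts. Kdm1a stood at 79.5, 81.1 and 79.6 CPM in controls and at 39.3, 36.9 and 38.4 CPM in the Kdm1a-ifKOs, so the libraries matched their labels (log2FC -1.07, adjusted p = 6.24e-08 in edgeR). On the second principal component, control replicate 3 and Kdm1a-ifKO replicate 2 stood apart from the other libraries. All 5 markers of excitatory neurons were counted in every group, and their sum lay between 6399 and 6736 CPM in controls and between 6360 and 6988 CPM in the Kdm1a-ifKOs. In bulk tissue, fewer cells of a type and less RNA per cell cannot be told apart.

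Which reads could be assigned to a member shaped what was measured. Genes whose exons lie wholly opposite those of another gene held 0 counts in 118 of 132 cases (89.4%), against 9700 of 34696 genes (28.0%) with at least 500 exon bases of their own, so reads over shared exons were largely uncounted. For the alpha and gamma members the counts therefore rest on the variable exons and other sequence that no second gene shares, and the constant exons are not represented. The share of 50-base words that a member's first exon has in common with other members was between 10.1% and 23.4% for the alpha members other than the C-types, up to 12.0% in the beta cluster, up to 4.25% for the gamma A genes and between 2.67% and 16.8% for the gamma B genes. It was 0% for all 5 C-type members, and the values of the other members are uncertain to the extent that reads from such words were dropped or shared out.

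Of the 58 members, 52 passed the filter on low counts and were tested, with 11 in the alpha cluster, 21 in the beta cluster and 20 in the gamma cluster. The 6 others were Pcdha4, Pcdha8, the second of the genes with the symbol Pcdha11, Pcdhb1, Pcdhga10 and Pcdhgb8. The symbol Pcdha11 belongs to ENSMUSG00000007440 (chromosome 18, from 37005203) and to ENSMUSG00000102206 (from 37010712), called here the first and the second, and the RefSeq annotation places Pcdha10 at the first. The second Pcdha11 and Pcdhga10 had 0 counts in all 6 libraries, and antisense genes (Gm10545 and Gm26672) overlap their exons. Pcdhga10 has 0 exon bases free of another gene, so its level could not be measured. Pcdhb1 summed to 6 counts over the controls and 3 over the Kdm1a-ifKOs, Pcdha8 to 14 and 10, Pcdha4 to 4 and 1, and Pcdhgb8 to 4 and 3. Only 404 of the 5768 exon bases of Pcdha4 are free of another gene, so its few counts need not mean a low level.

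Levels of different members were compared as CPM per kb of exon that no other gene shares, for the 56 members with at least 500 such bases. In control hippocampus, the C-type genes led the alpha and gamma clusters. Pcdhgc5, whose protein binds GABA-A receptors, reached 22.0 ± 1.67 CPM per kb (SD, n = 3), and Pcdhgc3, which binds the Wnt pathway scaffold Axin1, reached 14.8 ± 0.381 CPM per kb (SD, n = 3). The control values of Pcdhgc5 and Pcdhgc3 did not overlap, and both lay above Pcdhga11, the next in order with 8.83 ± 0.543 CPM per kb (SD, n = 3). Pcdhgc4, which is required for neuronal survival, stood lower, at 3.30 ± 0.208 CPM per kb (SD, n = 3), in the range of the gamma A and gamma B genes. Among the alpha genes, Pcdhac2, known for the tiling of serotonergic axons, reached 10.4 ± 0.134 CPM per kb (SD, n = 3), against 2.36 ± 0.358 CPM per kb (SD, n = 3) for Pcdha12 in second place. Pcdhac1 had 1.34 ± 0.241 CPM per kb (SD, n = 3), and its control values overlapped those of its neighbours in the order, Pcdha9 and Pcdha5. The lowest of the tested alpha genes was Pcdha1 with 0.362 ± 0.0689 CPM per kb (SD, n = 3).

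The beta genes ranged from Pcdhb1, with 0.0406 ± 0.0534 CPM per kb (SD, n = 3), to Pcdhb9, with 5.02 ± 0.137 CPM per kb (SD, n = 3), around a median of 1.16. Pcdhb9, Pcdhb17 (3.46), Pcdhb20 (3.04) and Pcdhb7 (2.70) formed the top of the order without overlap between neighbours, while the 4 genes next in order, from Pcdhb12 to Pcdhb13 with means between 2.28 and 2.004, each overlapped the gene below it. The median of the alpha members was 0.955 and that of the gamma members 4.08 CPM per kb. Within the gamma cluster, the medians were 4.63 for the gamma A genes, 2.44 for the gamma B genes and 14.8 for the gamma C genes, and Pcdhgb8, annotated as a polymorphic pseudogene, was lowest with 0.0281 ± 0.0119 CPM per kb (SD, n = 3). Divided by the full exon length, which counts the shared constant exons too, Pcdhgc5 came to 13.3, Pcdhac2 to 5.35 and Pcdhgc3 to 4.92 CPM per kb. By that length, Pcdhga11 (2.33) fell below Pcdhga3 (3.43), and Pcdhb12 (0.83) fell below Pcdhb13 (2.004). Comparisons between the clusters, and the order of some members within them, therefore depend on the length used.

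**Figure D1:**
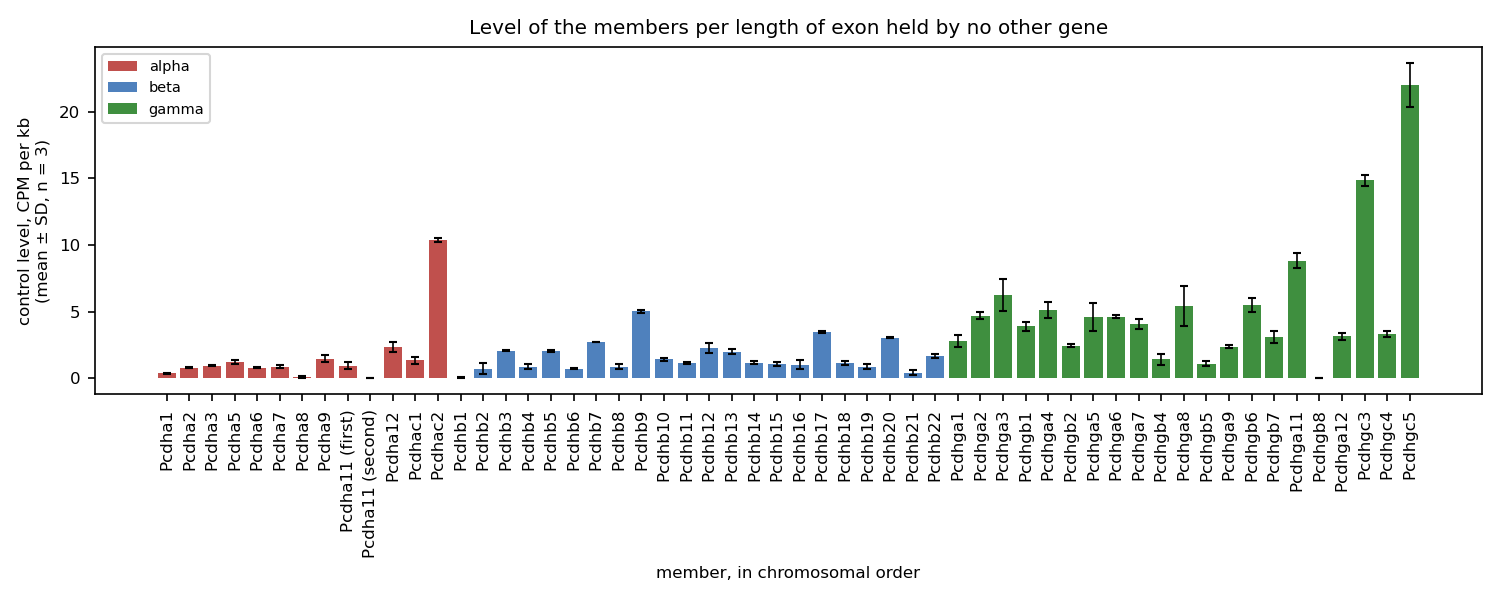
Level of the 56 members with at least 500 exon bases of their own in control hippocampus, in CPM per kb of those bases. Bars give the mean and error bars the SD over 3 control mice, in chromosomal order; Pcdhgc5 (22.0), Pcdhgc3 (14.8) and Pcdhac2 (10.4) exceed the other members, and "first" and "second" mark ENSMUSG00000007440 and ENSMUSG00000102206.

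The comparison of Kdm1a-ifKO with control hippocampus asked whether loss of Kdm1a in principal neurons was accompanied by other levels of these genes. Few members changed, and the changes were small. By the quasi-likelihood F test of edgeR, adjusted by Benjamini-Hochberg over 16799 genes, 6 of the 52 tested members (11.5%) had an adjusted p under 0.05, against 8.85% of all tested genes, so the share of called members lay near the background. Pcdhga2, Pcdhgc3 and Pcdhgc5 rose, where 6.04% of all tested genes rose, and Pcdhac2, Pcdhb19 and Pcdhgb5 fell, where 2.82% fell. The 3 control and the 3 Kdm1a-ifKO values did not overlap for 13 of the 52 members (25.0%), against 30.0% of all tested genes.

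The number of called members depended on single libraries and on the tool. It was 2 without control replicate 2, 3 without Kdm1a-ifKO replicate 1, 1 without Kdm1a-ifKO replicate 3 (Pcdhgb1, log2FC -0.51, which was not called with all libraries) and 4 or 5 without each of the others. DESeq2 called 3 members (Pcdhb19, Pcdhgc3 and Pcdhgc5). The number called over all genes fell as well, from 1487 with all libraries to 1396 with DESeq2. It was 1102 without control replicate 2, 899 without Kdm1a-ifKO replicate 1 and 783 without Kdm1a-ifKO replicate 3. The lower counts of members are thus not particular to the protocadherins.

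By cluster, the signs of the differences were uneven, while most members missed the threshold. In the alpha cluster, 10 of 11 tested members had a log2FC below 0, with a median of -0.36, and 1 was called. In the beta cluster, 20 of 21 lay below 0, with a median of -0.21, and 1 was called; 18 lay below 0 with upper-quartile normalization, 18 after correcting for GC content and length, and 16 without Kdm1a-ifKO replicate 2. In the gamma cluster, 14 of 20 lay above 0, as did 49.1% of all tested genes, with a median of 0.13, and 4 were called; the median was 0.08 after that correction and 0.05 without control replicate 1, when 11 of 20 lay above 0. Over all tested genes, 50.9% lay below 0 and the median was -0.0034, or 0.022 with upper-quartile normalization. Called members made up 9.09% of the tested alpha, 4.76% of the beta and 20.0% of the gamma members, against 8.85% of all tested genes. Members of a cluster were measured in the same libraries, so their signs are not independent of each other.

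**Figure D2:**
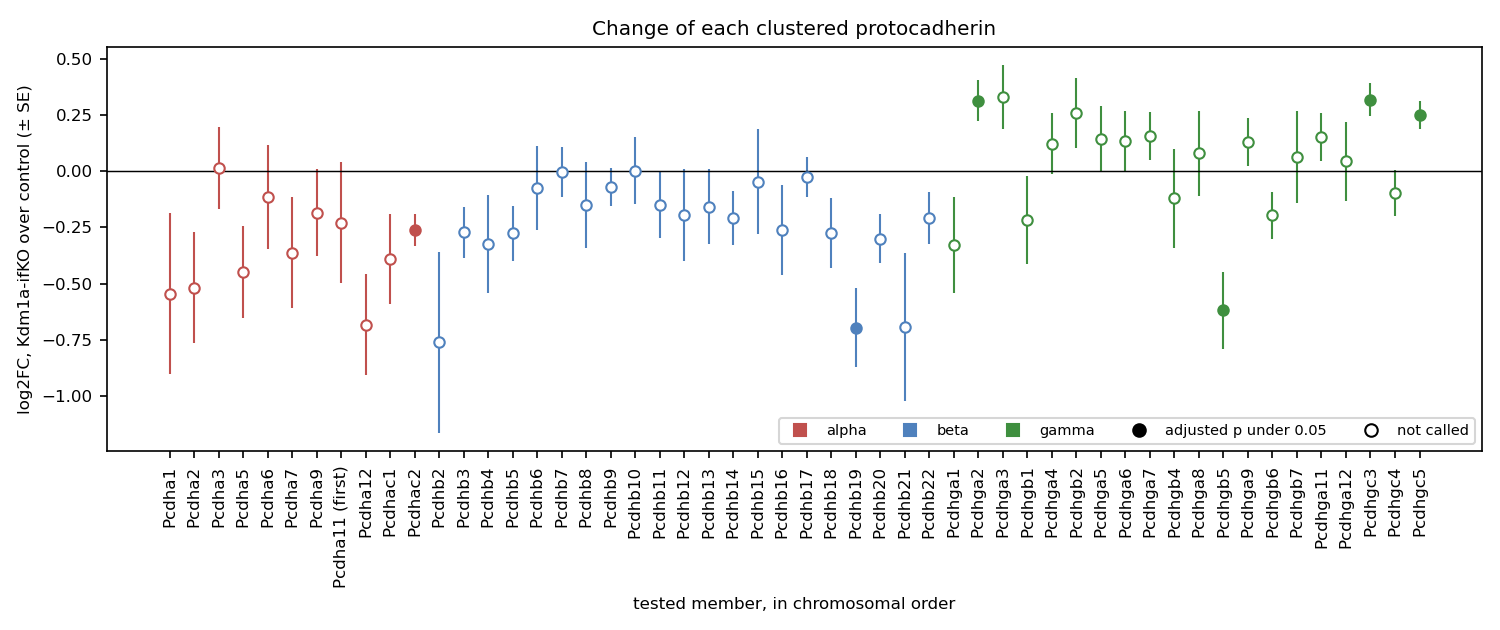
Change of the 52 tested members in chromosomal order, as log2FC of Kdm1a-ifKO over control with its SE (edgeR, 3 mice per genotype). Filled points mark the 6 members with an adjusted p under 0.05; 10 of 11 alpha and 20 of 21 beta members lie below 0, and 14 of 20 gamma members above it.

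Summed over each cluster, with low members included, the groups did not overlap. The alpha members summed to 57.1, 57.8 and 57.1 CPM in controls and to 49.2, 46.3 and 44.0 CPM in the Kdm1a-ifKOs. The beta members summed to 135.9, 135.8 and 147.5 CPM in controls and to 131.1, 119.3 and 117.5 CPM in the Kdm1a-ifKOs. The gamma members summed to 306.0, 317.5 and 303.5 CPM in controls and to 348.1, 333.6 and 349.1 CPM in the Kdm1a-ifKOs. The ratio of the group means was thus 0.811 for the alpha cluster, 0.878 for the beta cluster and 1.11 for the gamma cluster. Every alpha and beta sum was lower and every gamma sum higher in the Kdm1a-ifKOs than in any control, and the nearest values, 131.1 and 135.8 CPM, belonged to the beta cluster. Of all tested genes, 15.7% were higher and 14.4% lower without overlap in the same way, so such separation is common in these libraries. In the alpha sum, Pcdhac2 alone had means of 31.5 CPM in controls and 26.3 CPM in the Kdm1a-ifKOs. The gamma sum did not rise evenly. From control to Kdm1a-ifKO, the mean gamma C sum went from 139.8 to 165.2 CPM and the gamma A sum from 122.3 to 135.3 CPM. The gamma B sum went down, from 46.9 to 43.1 CPM. Pcdhgc5 alone had means of 101.3 CPM in controls and 120.7 CPM in the Kdm1a-ifKOs. All 58 members together came to 506.0 ± 6.32 CPM in controls and 512.7 ± 14.7 CPM in the Kdm1a-ifKOs (SD, n = 3 each), with overlap between the groups. The gamma cluster accordingly made up 61.1% ± 1.2 of the members' CPM in controls and 67.0% ± 1.3 in Kdm1a-ifKOs (SD, n = 3 each), without overlap.

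**Figure D3:**
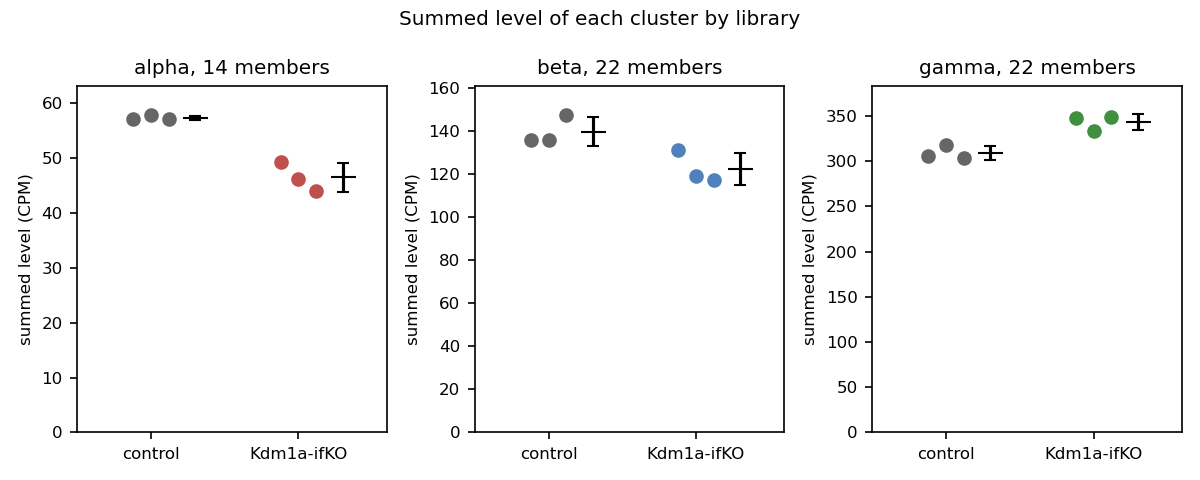
Summed level of all members of each cluster in each library, in CPM, for 3 control and 3 Kdm1a-ifKO mice. Points are libraries, and the bar beside them gives the mean ± SD; the alpha sums lie between 57.1 and 57.8 in controls and between 44.0 and 49.2 in Kdm1a-ifKOs, and the gamma sums between 303.5 and 317.5 and between 333.6 and 349.1.

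In the alpha cluster, Pcdhac2 was the member that passed the test. It stood at 31.6, 31.8 and 31.0 CPM in controls and at 28.4, 25.2 and 25.2 CPM in the Kdm1a-ifKOs. All Kdm1a-ifKO values lay below the controls, with a log2FC of -0.26 (SE 0.07, adjusted p = 0.0363). The call was lost in DESeq2 (0.0814), with upper-quartile normalization (0.0551) and with the libraries apart on the second component left out (0.0821). Pcdhac2 held 54.9% ± 0.57 of the cluster's CPM in controls and 56.5% ± 1.7 in Kdm1a-ifKOs (SD, n = 3 each), with overlap, so its share of the cluster did not separate the groups. Pcdhac1, the other alpha C-type gene, had 2.72, 3.68 and 3.87 CPM in controls and 2.83, 2.89 and 2.11 CPM in the Kdm1a-ifKOs (log2FC -0.39, adjusted p = 0.258). The lowest log2FC of the cluster belonged to Pcdha12 (-0.68, adjusted p = 0.0811), Pcdha1 (-0.55, adjusted p = 0.382) and Pcdha2 (-0.52, adjusted p = 0.218). Pcdha12 had 5.02, 3.78 and 4.94 CPM in controls and 3.96, 2.44 and 2.16 CPM in the Kdm1a-ifKOs, which overlap at 1 library of each group, and it passed the threshold without a filter on low counts (adjusted p = 0.00817) and without Kdm1a-ifKO replicate 1 (0.0178). Nearest to 0 were Pcdha3 (0.02), Pcdha6 (-0.12) and Pcdha9 (-0.18).

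In the beta cluster, Pcdhb19 fell. Its controls had 5.70, 5.51 and 7.63 CPM and its Kdm1a-ifKOs 3.86, 4.47 and 3.29 CPM, without overlap and with control replicate 3 highest (log2FC -0.70, SE 0.17, adjusted p = 0.0254). Pcdhb2 and Pcdhb21 had log2FCs of similar size, -0.76 and -0.69, with wide errors (SE 0.40 and 0.33) and overlapping groups (adjusted p = 0.284 and 0.220). In both, control replicate 3 again held the highest value, 3.33 CPM for Pcdhb2 and 2.58 CPM for Pcdhb21. The better measured Pcdhb20 had 11.0, 10.8 and 10.7 CPM in controls and 8.59, 9.75 and 8.01 CPM in the Kdm1a-ifKOs, without overlap (log2FC -0.30, adjusted p = 0.107). At the other end, Pcdhb10 (0.0033), Pcdhb7 (-0.0033) and Pcdhb17 (-0.02) lay at 0 within their errors, and Pcdhb9, the highest beta gene per length, had a log2FC of -0.07 (SE 0.08).

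In the gamma cluster, 2 of the 3 C-type genes rose. Pcdhgc5, the member with the most counts, had 107, 104 and 92.5 CPM in controls and 125, 114 and 123 CPM in the Kdm1a-ifKOs (log2FC 0.25, SE 0.06, adjusted p = 0.0244). Pcdhgc3 had 26.7, 27.8 and 26.5 CPM in controls and 31.6, 32.8 and 36.8 CPM in the Kdm1a-ifKOs (log2FC 0.32, SE 0.07, adjusted p = 0.0159). Neither gene showed overlap between the groups. Pcdhgc4, which lies between them on the chromosome, had 10.7, 11.8 and 12.0 CPM in controls and 11.5, 10.2 and 10.6 CPM in the Kdm1a-ifKOs, with overlap (log2FC -0.10, SE 0.10, adjusted p = 0.611).

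Apart from the C-types, Pcdhga2 rose and Pcdhgb5 fell. Pcdhga2 had 12.9, 11.6 and 11.8 CPM in controls and 14.4, 14.8 and 16 CPM in the Kdm1a-ifKOs, without overlap (log2FC 0.32, SE 0.09, adjusted p = 0.0471). Pcdhgb5 had 4.45, 6.09 and 4.73 CPM in controls and 3.24, 3.66 and 3.03 CPM in the Kdm1a-ifKOs, also without overlap (log2FC -0.62, SE 0.17, adjusted p = 0.0402). Pcdhga3 had the largest log2FC of the cluster, 0.33, with overlapping groups (adjusted p = 0.185), and the lowest after Pcdhgb5 were Pcdhga1 (-0.33, adjusted p = 0.390) and Pcdhgb1 (-0.22, adjusted p = 0.546). The gamma A and gamma B genes alternate along the chromosome, and a split by these types, made after the values were seen, put 10 of 11 gamma A genes above 0 (median 0.13) and 4 of 6 gamma B genes below 0 (median -0.16). The gamma B median was -0.0052 once the libraries apart on the second component were left out, with 3 of 6 genes below 0. As shares of the cluster's CPM, the gamma B genes made up 15.2% ± 0.58 in controls and 12.5% ± 0.41 in Kdm1a-ifKOs (SD, n = 3 each), without overlap. The shares of the gamma A genes (39.6% ± 2.1 and 39.4% ± 1.2) and of the gamma C genes (45.2% ± 2.0 and 48.1% ± 0.85) overlapped between the groups.

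**Figure D4:**
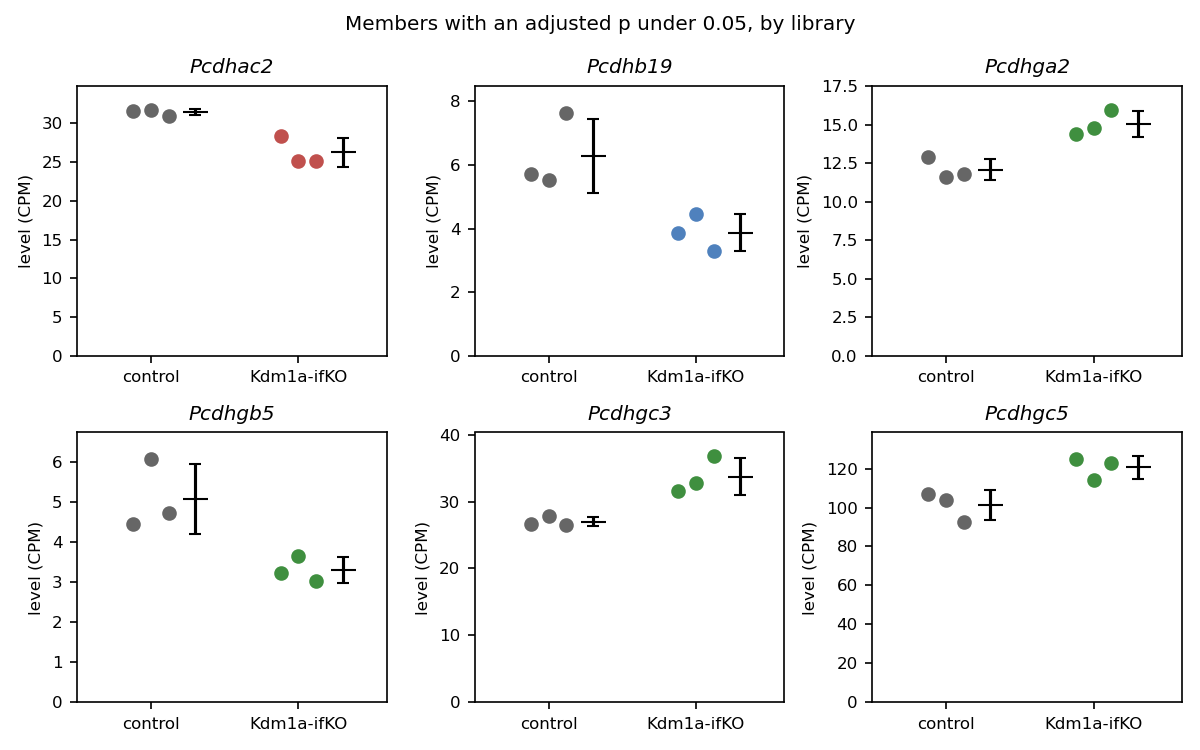
Levels of the 6 members with an adjusted p under 0.05 in each library, in CPM from 0, for 3 control (grey) and 3 Kdm1a-ifKO (coloured) mice, with the mean ± SD beside the points. The groups do not overlap in any panel; Pcdhgc5 spans 92.5 to 107 CPM in controls and 114 to 125 CPM in the Kdm1a-ifKOs.

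None of the 6 calls held with each library left out in turn, while their log2FCs kept their sign. Pcdhgc3 was called in 5 of 6 such fits and missed the threshold only without Kdm1a-ifKO replicate 3 (0.0855). Kdm1a-ifKO replicate 3 was also needed for the other 5, with adjusted p-values of 0.142 for Pcdhac2, 0.0953 for Pcdhb19, 0.134 for Pcdhgb5, 0.186 for Pcdhga2 and 0.11 for Pcdhgc5 once it was left out. Without Kdm1a-ifKO replicate 1, Pcdhb19 (0.0751), Pcdhgb5 (0.114), Pcdhga2 (0.0797) and Pcdhgc5 (0.103) missed it. Pcdhac2, Pcdhgb5, Pcdhga2 and Pcdhgc5 also missed it without control replicate 2 (0.0908, 0.147, 0.147 and 0.0546), Pcdhb19 and Pcdhga2 without control replicate 3 (0.0903 and 0.0981), Pcdhac2 without control replicate 1 (0.0778), and Pcdhac2 and Pcdhga2 without Kdm1a-ifKO replicate 2 (0.104 and 0.0800). Pcdhga2 was thus the call that held least often, in 1 of 6 fits, and it was also lost in DESeq2 (0.137), with a minimum of 10 summed counts (0.0521), after correcting for GC content and length (0.0797) and with the libraries apart on the second component left out (0.0979). Pcdhgb5 was lost in DESeq2 as well (0.0836).

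Some markers of other cell types moved in the same comparison, in which 6.04% of all tested genes were called higher and 2.82% lower. The 5 astrocyte markers, of which Slc1a3 passed the test (log2FC 0.22), summed to between 1587 and 1715 CPM in controls and between 1864 and 2044 CPM in the Kdm1a-ifKOs. Slc1a3 went from a mean of 823.7 to 958.6 CPM and the uncalled Gfap from 406.4 to 528.3 CPM, and the other astrocyte markers differed by less. The 5 microglia markers, of which Cx3cr1 (0.27), Csf1r (0.33) and Tmem119 (0.42) passed, summed to between 257.6 and 284.5 CPM and between 297.9 and 378.9 CPM. Without Kdm1a-ifKO replicate 3, none of the 4 called astrocyte and microglia genes passed (adjusted p from 0.0889 to 0.105). Csf1r kept its call in 1 of 6 fits with a library left out, and Cx3cr1, Tmem119 and Slc1a3 in 2 of 6 each. The summed choroid plexus markers stood higher in the Kdm1a-ifKOs through 1 gene, Kl (24.4 to 59.0 CPM, log2FC 1.28), while Ttr had a log2FC of -1.49 (adjusted p = 0.337) and the median over the 4 tested markers was -0.21. The summed thalamus markers likewise stood higher through Prkcd (33.0 to 49.1 CPM, log2FC 0.57), while Tcf7l2 (0.22), Lef1 (-0.06) and Ramp3 (-0.15) did not pass. The sums of markers of interneurons (Vip passed, -0.46, but not without Kdm1a-ifKO replicate 1 or 3, with adjusted p of 0.0630 and 0.0548), excitatory neurons (Neurod6 passed, -0.36), oligodendrocytes, their precursors, endothelial cells and ependyma overlapped between the groups. No listed marker was at 0 in all libraries, and the part of these differences in the values of the protocadherins was not tested.

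The CTCF ChIA-PET library maps contacts between sites bound by CTCF, and each loop is a pair of anchors joined by a number of paired-end tags (PETs). Of its 27786 loops, 19 had an anchor inside the protocadherin clusters, with 5 in the alpha cluster (48 PETs), 14 in the gamma cluster (147 PETs) and 0 in the beta cluster. Over the 2879 windows of the same length in the genome, counted in the same way, the mean was 11.8 loops and the median 5, and 21.9% of the windows held at least 19. The PET counts ran from 3 to 30 with a median of 5, which is also the median of all loops, and 7.16% of all loops reached 30 PETs or more. The loops spanned 32.7 to 213 kb between anchor midpoints with a median of 72.8 kb, compared with 115 kb over all loops. With 1 library there is no replicate check, and the intervals below (exact Poisson, 95%) cover counting error only.

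In the alpha cluster, 4 of the 5 loops ended at 1 site at 37215930 to 37219327, which lies 28.3 kb past the end of the cluster, before Pcdhb1, and overlaps no exon (it is intronic to the long gene models Gm42416, Gm37013 and Gm37388, which run across the locus). This site joined the start of Pcdhac1 (anchor 37088765 to 37091187) with 24 PETs (interval 15.4 to 35.7) and the start of the first Pcdha11 (anchor 37004570 to 37006578), 212.6 kb away, with 13 PETs (6.92 to 22.2). It also joined the first exon of Pcdhac2 (37144337 to 37145882) and a site just before Pcdhac1 (37087688 to 37088428) with 4 PETs each (1.09 to 10.2). The fifth loop joined Pcdhac1 with the first exon of Pcdhac2 by 3 PETs (0.619 to 8.77). The interval of the Pcdhac1 loop lay above that of the Pcdhac2 loop and overlapped that of the first Pcdha11. Pcdhac1 had the loop with the most PETs among the alpha genes, whereas Pcdhac2 had the highest level. The loops are from sorted Camk2a+ neurons and the levels from bulk hippocampus, so they do not describe the same cells.

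In the gamma cluster, all 14 loops had an anchor over the first exon of 1 of 6 genes, Pcdhgb6, Pcdhgb8, Pcdhga12, Pcdhgc3, Pcdhgc4 and Pcdhgc5, in the distal part of the cluster. Of these, 11 loops with 133 PETs ended inside Diaph1, the neighbouring gene for a formin that nucleates actin, at 37849926 to 37855029 (7 loops, 103 PETs), 37876012 to 37880348 (3 loops, 27 PETs) and 37881750 to 37882772 (1 loop, 3 PETs). The first of these sites overlaps exons of Diaph1 and the microRNA gene Mir6979, and the other sites overlap no exon of it. The first site was joined with Pcdhga12 by 30 PETs (20.2 to 42.8), with Pcdhgc4 by 24 PETs (15.4 to 35.7), with Pcdhgb8 by 23 PETs (14.6 to 34.5), with Pcdhgc3 by 14 PETs (7.65 to 23.5) and with Pcdhgb6 by 5 PETs (1.62 to 11.7). The intervals of the first 4 genes overlapped, and that of Pcdhgb6 lay below those of Pcdhga12, Pcdhgc4 and Pcdhgb8. Pcdhgc5 reached the same site by 2 loops of 4 and 3 PETs and the second site by 12 PETs (6.20 to 21). The anchors of Pcdhgc4 and Pcdhgc5 overlap and form 1 site, and the anchor of Pcdhgc3 also holds the start of BC037039. The 3 loops within the cluster joined Pcdhga12 with Pcdhgc4 or Pcdhgc5 by 3 to 7 PETs.

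No loop joined the alpha with the gamma cluster or had an anchor in the beta cluster. The beta cluster as a whole was enclosed by 1 loop, which spanned 25220 kb with 3 PETs and enclosed all 3 clusters. Contacts under 3 PETs, or without CTCF peaks at both ends, were not kept by the authors and could not be seen.

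**Figure D5:**
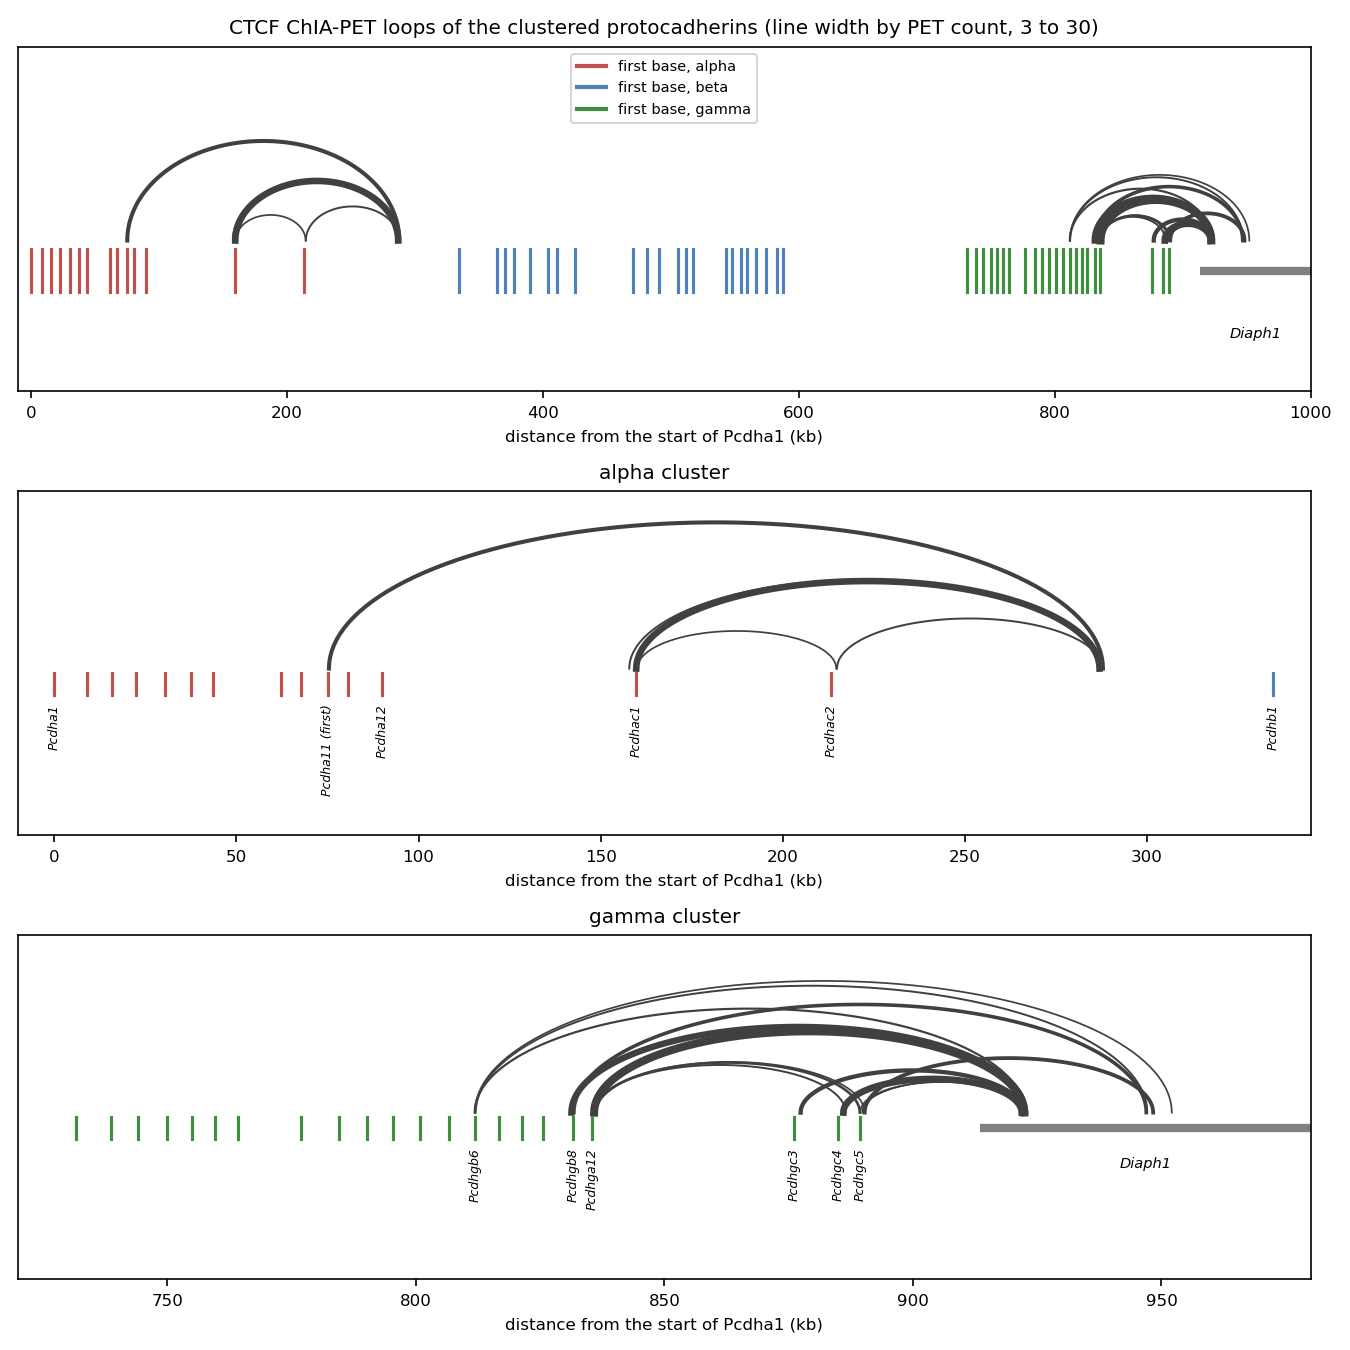
CTCF loops with an anchor inside the clusters, drawn as arcs between anchor midpoints, for the whole locus (top), the alpha cluster (middle) and the distal gamma cluster (bottom), against the distance from the start of Pcdha1 in kb. Line width grows with the PET count, ticks mark the first base of each member and the grey bar marks Diaph1; 5 arcs start in the alpha cluster, 14 in the gamma cluster and 0 in the beta cluster, and "first" marks ENSMUSG00000007440.

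The first base of 8 members lay in a loop anchor, namely the first Pcdha11, Pcdhac1, Pcdhgb6, Pcdhgb8, Pcdhga12, Pcdhgc3, Pcdhgc4 and Pcdhgc5. Of the 7 that were tested, Pcdhgc3 and Pcdhgc5 were called, and the log2FCs ran from -0.39 for Pcdhac1 to 0.32 for Pcdhgc3, around a median of -0.10. The 24 tested alpha and gamma members without an anchor at the first base ran from -0.68 to 0.33 around a median of -0.05, and 3 were called. Over all tested genes, 8.85% were called, and the difference between members with and without an anchor was not tested. The others with an anchor were the first Pcdha11 (-0.23, adjusted p = 0.657), Pcdhgb6 (-0.20, adjusted p = 0.277), Pcdhga12 (0.05, adjusted p = 0.909) and Pcdhgc4. At the first base, Pcdhgb8 was anchored by 34 PETs over 2 loops and had 4 counts over the 3 controls. Pcdhgc5 was anchored there by 23 PETs over 3 loops and had 5756 counts. These PETs are from sorted Camk2a+ neurons and the counts from bulk hippocampus with other cell types. The site that Pcdhgc5 shares with Pcdhgc4 held 57 PETs over 7 loops, so the order of these genes by PETs depends on how anchors are assigned. The only CTCF ChIA-PET library came from WT mice, so CTCF loops of Kdm1a-ifKO neurons could not be examined.

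Genes around the clusters were read from the same fit. Within 500 kb of either end, 32 of 65 counted genes other than members were tested, and Hbegf and Arap3 passed the test, where 8.85% of all tested genes did. Hbegf, an EGF receptor ligand, had 12.4, 11.8 and 10.7 CPM in controls and 14.1, 16.3 and 14.7 CPM in the Kdm1a-ifKOs (log2FC 0.37, SE 0.10, adjusted p = 0.0328). Arap3, a GTPase-activating protein, had 16.3, 15.1 and 14.2 CPM in controls and 18.3, 21.3 and 20.5 CPM in the Kdm1a-ifKOs (log2FC 0.40, SE 0.09, adjusted p = 0.0135). Both were higher in all 3 Kdm1a-ifKOs than in any control, but Hbegf kept its call in 1 of 6 fits with a library left out, that without control replicate 1 (adjusted p up to 0.107, without Kdm1a-ifKO replicate 2), and missed it in DESeq2 (0.0762). Arap3 missed it without Kdm1a-ifKO replicate 3 (0.0547). Diaph1, at the outer end of the gamma loops, had 81.1, 82.2 and 81.4 CPM in controls and 87.9, 83.3 and 91.0 CPM in the Kdm1a-ifKOs (log2FC 0.10, SE 0.05, adjusted p = 0.282).

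The machinery of promoter choice and silencing was followed through a list of 31 genes, all of them tested, which included CTCF, cohesin and its regulators, DNA methyltransferases, Tet enzymes and repressors of the clusters. Of these, 1 rose and 1 fell, against 6.04% and 2.82% of all tested genes, and the median log2FC was -0.07. Rest, the repressor of neuronal genes, rose from 6.07, 6.09 and 6.99 CPM to 13.9, 14.3 and 12.6 CPM (log2FC 1.09, SE 0.11, adjusted p = 2.89e-05). Pds5b, a regulator of cohesin release, fell from 115, 121 and 147 CPM to 99.8, 99.3 and 100 CPM (log2FC -0.36, SE 0.08, adjusted p = 0.0199), with control replicate 3 highest. Its log2FC was -0.24 without that library and -0.20 after correcting for GC content and length, and its call was lost without Kdm1a-ifKO replicate 1 (0.0710) or replicate 3 (0.0547). Ctcf itself had a log2FC of -0.01 (SE 0.06) and Rad21, the cohesin subunit, -0.0010 (SE 0.06). For Smchd1, which represses the clusters, the log2FC was -0.07 (SE 0.08), and for Setdb1, an H3K9 methyltransferase that acts on the locus, it was -0.08 (SE 0.06).

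Partners and effectors of the proteins were taken from a list of 25 genes, all of them tested. Of these, 2 passed the test, both lower (median log2FC -0.06), where 2.82% of all tested genes fell and 8.85% passed in either direction. Both called genes encode subunits of the WAVE regulatory complex, which binds the intracellular part of some protocadherins and drives actin branching. Nckap1 fell from 827, 830 and 887 CPM to 779, 711 and 739 CPM (log2FC -0.19, SE 0.05, adjusted p = 0.0392), and Abi2 from 200, 210 and 224 CPM to 190, 180 and 179 CPM (log2FC -0.21, SE 0.06, adjusted p = 0.0343). Nckap1 lost its call with each library left out (adjusted p from 0.0504 to 0.152), and Abi2 with each but control replicate 1 (up to 0.146). Both lost it with upper-quartile normalization (0.0666 and 0.0520), and Abi2 moved to -0.09 after correcting for GC content and length. Other subunits of the complex did not pass, with log2FCs of -0.11 for Wasf1, -0.0010 for Cyfip1, -0.05 for Cyfip2, -0.10 for Abi1 and 0.06 for Brk1. The kinases Ptk2 and Ptk2b, which gamma and alpha protocadherins inhibit, had log2FCs of -0.06 and 0.09 (SE 0.06 each).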

How the data were processed

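Per the labels and the study's methods, the authors made single-end poly-A libraries, trimmed reads with cutadapt 1.18, aligned them to mm10 with HISAT2 2.1.0, kept reads of high mapping quality on nuclear chromosomes and counted them per gene with HTSeq 0.11.1. The deposited values are raw read counts. The authors also deposited loops with PET counts, made with ChIA-PIPE on mm10 and filtered for 3 or more PETs and CTCF peaks on either side. Whether HTSeq used strand is not given in the sources used here. Spread between libraries is spread between mice.

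Genes were named and placed with GENCODE M21. Counts were fitted in edgeR 4.0.16 (R 4.3.3, filterByExpr, TMM, robust quasi-likelihood F test, genotype only), with Benjamini-Hochberg adjustment over 16799 genes and a threshold of 0.05. SE is the log2FC divided by the root of F. CPM use TMM library sizes. Loops and figures were made in Python 3.11.15.

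Members, lists and tests were chosen with earlier results of these data known. Named members are those called, the C-types, the 3 largest and 3 smallest log2FCs and the highest and lowest level of each cluster (per unshared exon kb, in place of the planned TPM), and those with a first base in an anchor. Other genes are named where called, or where a sentence gives a role. Ctcf, Rad21, Smchd1, Setdb1, the uncalled WAVE subunits, Ptk2, Ptk2b, Pcdhb20 and Pcdhb9's log2FC were added after values were seen. Alternatives were DESeq2 1.42.0, its size factors in edgeR, upper-quartile normalization, other filters, a replicate block and each library left out, and, added after the data were seen, a GC content and length correction, and the removal of control replicate 3 with Kdm1a-ifKO replicate 2. Sequence of the clusters is not printed here.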

Additional observations from a re-analysis of the deposited data

How the results depend on the processing

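The number of called members (6 with all libraries) was 3 with DESeq2 and 2 with the replicate block, and lay between 1 and 5 with 1 library left out. Over all genes, the number called (1487 with all libraries) was 1396 with DESeq2 and 1046 with the replicate block. It lay between 783 and 1460 with 1 library left out. Genes called over all lists numbered 21, or 35 without a filter on low counts, and 10 to 21 with 1 library left out. The median log2FC of the gamma cluster was 0.08 (0.0768) with the GC content and length correction and between 0.0483 and 0.134 with 1 library left out. Loops numbered 10 with at least 5 PETs and 8 with at least 10 PETs, against 19. Called genes over the whole table numbered 2537 without the filter. Same-numbered mice did not deviate together (correlations -0.0326, -0.0913 and -0.148). This gives no sign that the numbers pair the samples, though so few mice cannot exclude it. The block kept Pcdhgc3 and Pcdhgc5. Signs turned for members near 0. Pcdhb17 came to 0.0017 with upper-quartile normalization, 0.0354 with the GC content and length correction, 0.0646 with the 2 libraries apart on the second component left out, and between -0.0867 and 0.0458 with 1 library left out. Pcdhb7 came to 0.0221, 0.0124 and 0.0829 in the same fits, 0.0019 without a filter, and between -0.0489 and 0.0778 with 1 library left out. With 1 library left out, the first Pcdha11 lay between -0.446 and 0.0014, Pcdha3 between -0.0244 and 0.0541, Pcdhb10 between -0.0559 and 0.0410 and Pcdhga12 between -0.197 and 0.194. The cluster medians kept their sign under every alternative run. The log2 ratios of the sums kept theirs with DESeq2 size factors, upper-quartile normalization and each library left out. They were not recomputed under the other alternatives. The cause of these changes was not tested. Members under about 100 counts per group, such as Pcdha1 and Pcdhb21, limit what the depth can show.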

Other observations

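Outside the clusters, the other protocadherins and the giant cadherins were read from a list of 24 genes, of which 22 were tested, 4 rose and 1 fell (median log2FC 0.01), where 6.04% of all tested genes rose and 2.82% fell. Dchs1, which pairs with Fat4 in planar cell polarity, rose from 26.1, 25.0 and 23.2 CPM to 49.3, 46.2 and 47.1 CPM (log2FC 0.94, SE 0.07, adjusted p = 1.26e-06 in edgeR). Fat4 had a log2FC of 0.05 (SE 0.14, adjusted p = 0.854). Celsr1, a core planar polarity cadherin, rose from 9.31, 10.2 and 11.1 CPM to 15.1, 17.5 and 16.4 CPM (log2FC 0.68, SE 0.10, adjusted p = 8.01e-04), while Celsr2 (0.12) and Celsr3 (0.01) did not pass. Cdhr1, known from photoreceptors, rose from 10.6, 12.6 and 11.1 CPM to 17.1, 17.3 and 15.1 CPM (log2FC 0.53, SE 0.10, adjusted p = 0.00441). Pcdh8, which acts in the removal of N-cadherin from synapses, rose from 73.1, 69.4 and 57.7 CPM to 88.1, 80.5 and 93.1 CPM (log2FC 0.39, SE 0.09, adjusted p = 0.0216), a call lost without Kdm1a-ifKO replicate 1 (0.0771) or replicate 3 (0.0932). Pcdh9, a delta protocadherin, fell from 99.6, 104 and 112 CPM to 75.5, 86.8 and 75.9 CPM (log2FC -0.41, SE 0.07, adjusted p = 0.00199).

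Among 17 classical cadherins, 15 were tested, 1 rose and 1 fell, beside the same shares of all tested genes (median log2FC -0.17). Cdh22 rose from 15.7, 18.0 and 15.6 CPM to 22.2, 23.3 and 20.8 CPM (log2FC 0.43, SE 0.09, adjusted p = 0.00713), and it missed the threshold with the correction for GC content and length (log2FC 0.28, adjusted p = 0.0518). Cdh9, which marks synapses of the dentate gyrus and CA3, fell from 43.7, 47.1 and 51.3 CPM to 41.9, 34.6 and 39.0 CPM (log2FC -0.30, SE 0.08, adjusted p = 0.0367). Its call was lost after the same correction (-0.19, 0.0916) and without control replicate 2 (0.0720), control replicate 3 (0.0897), Kdm1a-ifKO replicate 2 (0.105) or Kdm1a-ifKO replicate 3 (0.0908). Cdh2, or N-cadherin, had a log2FC of 0.01 (SE 0.06). Fat4, Celsr2, Celsr3 and Cdh2 were added after values were seen.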
